A study of Triticum polonicum with 8 samples.

Results

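Roots of dwarf Polish wheat (Triticum polonicum), a tetraploid wheat with A and B subgenomes, were compared under Cd with and without excess Zn at a raised supply of calcium and potassium nitrate. The comparison sets 1 library, N2_Cd_Zn, against 1 library, N2_Cd, so 2 of the 8 libraries of the series enter it. Both groups received 80 µM CdCl2 together with 8 mM calcium nitrate and 10 mM potassium nitrate. N2_Cd_Zn had 500 µM ZnSO4, and N2_Cd had only the 5 µM Zn of the basal medium. Roots were taken from seedlings aged 4 weeks after 1 week of treatment. The question named in the series title is the role of Ca and K in Cd-Zn interaction. The other libraries used here for reference were N2 (same nitrate supply, no added metal), N2_Zn (500 µM Zn alone) and the basal-nitrate set N0, N0_Cd, N0_Zn and N0_Cd_Zn, which received 4 mM calcium nitrate and 5 mM potassium nitrate with the same metals. The supply of nitrate rose with that of Ca and K, from 13 to 26 mM as computed from these doses.

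Zn is an essential micronutrient and Cd is a toxic metal with no established nutritional role in crop plants. As divalent ions of related chemistry they share membrane transporters, among them members of the ZIP and heavy-metal ATPase families, and plant cells bind Cd with glutathione-derived phytochelatins and store both metals in vacuoles. Excess Zn is itself toxic to roots, and Ca can compete with Cd at the root surface. The genes of these pathways could not be picked out here, since the files do not pair the gene identifiers with names, and the labelled tissue was not checked against marker genes for the same reason. TGACv1 identifiers refer to bread wheat gene models and give subgenome and chromosome arm (7BL is the long arm of 7B, U marks no arm). Loci known by a serial number alone carry no position.

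The labels state 3 biological replicates per treatment, but the tables hold 1 column each, so no difference below has a replicate check and no test was made. Library totals were 20000875 counts in N2_Cd_Zn and 21745669 in N2_Cd, against 21518150 to 25241789 in the other 6. Levels are given as CPM, the read count relative to the scaled total of its library. The scaling factors came from TMM, a method that aligns libraries on genes that differ little. Of 124856 genes, 32895 had at least 5 CPM in 1 of the 2 libraries and were compared. Bulk RNA cannot tell fewer cells of a type from less RNA per cell.

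More genes were lower than higher when Zn was added to Cd. At 2-fold or more, 2683 of the 32895 genes were higher in N2_Cd_Zn (8.16%) and 4365 were lower (13.3%). The remaining 25847 genes lay within 2-fold. The median log2 ratio was -0.04, and between 0.01 and 0.06 under 5 of the 12 alternative settings, so its sign was not stable. The middle 80% of genes spanned log2 ratios from -1.21 to 0.87. Counting error was small at this depth. The 95% counting interval of the ratio excluded equal levels for all 2683 higher and all 4365 lower genes. The minimum of 5 CPM together with a 2-fold ratio fixed that outcome in advance. The intervals lay beyond 1.5-fold for 2674 of the higher and 4342 of the lower genes. These intervals cover counting error only. With TMM factors taken from all genes the split at 2-fold was 3153 higher and 3760 lower. At 8-fold or more, 263 genes were higher (0.8%) and 319 lower (0.97%), a balance that turned to 302 and 294 with TMM factors from all genes. At 16-fold or more 117 were higher and 166 lower.

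**Figure D1:**
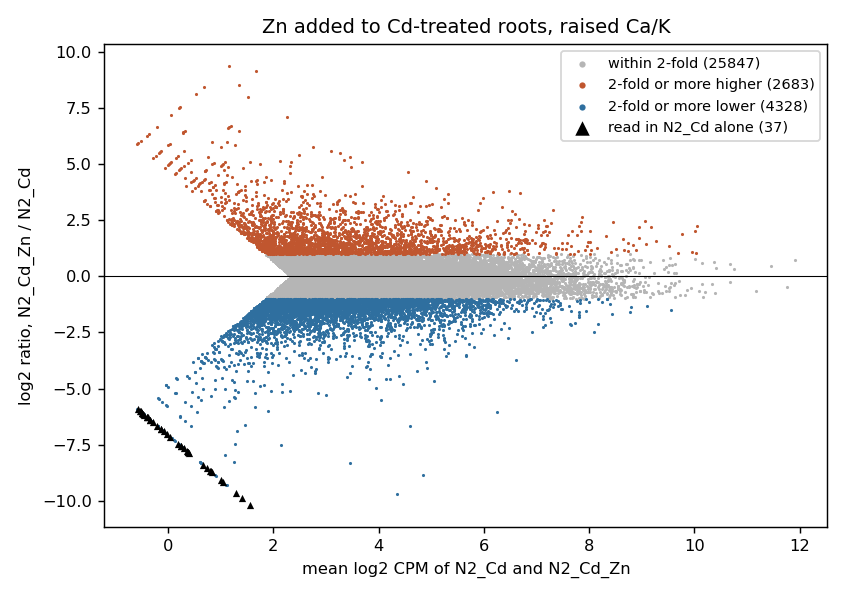
Log2 ratio of N2_Cd_Zn to N2_Cd (y axis) against the mean log2 CPM of both libraries (x axis) for the 32895 compared genes, 1 point a gene. Points above and below the grey band are the 2683 higher and 4328 lower genes. Black triangles are the 37 genes read in N2_Cd alone, all below the grey band.

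Genes with reads in N2_Cd and in no other library were set apart. There were 2642 of them, and 1683 held a single read. A depth of at least 10 reads was reached by 132 of them, whereas the other 7 libraries had 0 to 21 genes of this kind each, with 0 in N2_Cd_Zn. Of these 132 genes, 77 (58.3%) carried a D code, a subgenome that tetraploid wheat lacks, 22 an A code and 22 a B code. For reference, D codes made up 7.9% of the 57704 genes with at least 10 reads in N2_Cd and 28.4% of the 124856 genes of the tables. The 128 genes with a scaffold number were spread over 119 scaffolds. All 2642 genes together held 24345 reads, or 0.112% of the library, and where these reads came from was not tested. Only 37 of them reached 5 CPM, and with 0 reads in N2_Cd_Zn all 37 were counted as lower by definition. Without them 4328 genes were lower at 2-fold, and at 8-fold the count fell from 319 to 282, which brought the large ratios close to balance at 263 higher and 282 lower.

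The most deeply read of these genes were TRIAE_CS42_1DS_TGACv1_080991_AA0256470, with a D code, and TRIAE_CS42_1BS_TGACv1_049356_AA0150030 on arm 1BS. The former had 2177 counts (100 CPM) in N2_Cd and 0 in the other 7 libraries, N2_Cd_Zn included. The latter had 1751 counts (80.7 CPM) in N2_Cd and likewise 0 elsewhere. Against a floor of 3 counts in N2_Cd_Zn, these levels were at least 701-fold and 564-fold lower.

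N2_Cd also lacked genes that every other library held. In 48 genes N2_Cd had at most 3 counts while the other 7 libraries each had at least 20. Among the other libraries the same kind of gap was seen in 2 genes (N0) to 95 genes (N0_Zn). It was seen in 48 genes for N0_Cd_Zn and in 3 genes for N2_Cd_Zn. Over all 124856 genes, 10428 had a serial number only, 35769 an A code and 38535 a B code. Of the 48 genes missing in N2_Cd, 31 had a serial number only, 13 an A code and 4 a B code. The 21 of them that reached 5 CPM were all among the 263 genes at 8-fold or more higher in N2_Cd_Zn. That follows from the definition, since at most 3 counts in N2_Cd against 5 CPM in N2_Cd_Zn exceeds 8-fold.

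The genes with the highest ratios were of that kind or close to it. Novel00557 had 1600 counts (76.3 CPM) in N2_Cd_Zn and 1 count (0.0461 CPM) in N2_Cd, a 1656-fold difference with a counting interval of 297 to 65461. Its level in the other 6 libraries ran from 51.7 CPM (N2) to 89.4 CPM (N0_Zn), so that N2_Cd alone stood apart. Novel09935 had 1203 counts (57.4 CPM) in N2_Cd_Zn and 0 in N2_Cd, at least 415-fold higher. It was at 18.5 CPM in N2 and 13.0 in N2_Zn, and at 51.0, 30.9 and 33.7 CPM in N0, N0_Cd and N0_Zn. It was also low in N0_Cd_Zn, with 14 counts (0.622 CPM), so both low libraries contain Cd and they differ in Zn and in Ca/K.

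Outside the genes read in N2_Cd alone, the lowest ratios belonged to 2 genes with the code U and of different pattern. TRIAE_CS42_U_TGACv1_642434_AA2117550 had 13 counts (0.620 CPM) in N2_Cd_Zn and 12699 (585 CPM) in N2_Cd, 944-fold lower with an interval of 552 to 1773. Its level was 929 CPM in N2 and 1.86 CPM in N2_Zn, so within the raised-nitrate set both libraries with Zn were low and both without were high. At basal nitrate its levels were 34.7 (N0), 280 (N0_Cd), 0.686 (N0_Zn) and 0.400 CPM (N0_Cd_Zn), with the same separation by Zn. TRIAE_CS42_U_TGACv1_665230_AA2153870 had 0 counts in N2_Cd_Zn and 1181 (54.4 CPM) in N2_Cd, at least 380-fold lower. The other 6 libraries held 0 to 2 counts of it, which makes it a near match to the genes read in N2_Cd alone.

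**Figure D2:**
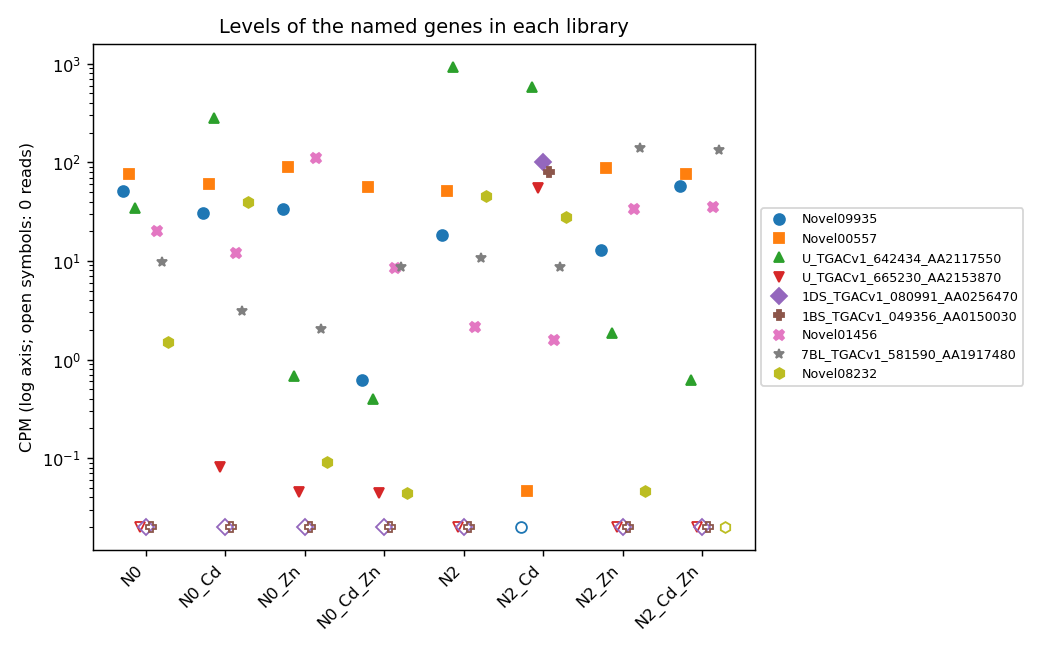
CPM (log axis) of the 9 named genes in each of the 8 libraries, 1 point a gene and library, with open symbols at the foot for 0 reads and the shared start of the identifiers left out. Novel00557 is between 51.7 and 89.4 CPM in every library but N2_Cd, whereas U_TGACv1_642434_AA2117550 is under 2 CPM in all 4 libraries with Zn.

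Zn was also added without Cd at the same nitrate supply, in N2_Zn against N2, a pair that shares no library with the comparison described here. In that pair the share 2-fold or more higher was 9.77% of 32471 genes and the share lower 7.09%. Of 29817 genes compared in both, 497 were higher and 404 lower with Zn both under Cd and without it, a balance that turned under 5 of the 12 alternative settings (408 and 526 with CPM by library total). Opposite directions were as common: 291 genes were higher with Zn under Cd and lower without Cd, and 610 were lower under Cd and higher without it. Put as shares, 23.0% of the 2162 genes higher under Cd were higher without Cd, and 13.5% were lower, against 9.43% and 4.11% of all genes compared in both. Of the 3267 genes lower under Cd, 12.4% were lower without Cd and 18.7% higher. Both groups thus held more genes of either direction than the background.

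Some genes were named for the largest ratios of 1 sign in both of these pairs, so their like direction at raised nitrate follows from the choice. Novel01456 had 734 counts (35 CPM) in N2_Cd_Zn against 34 (1.57 CPM) in N2_Cd, 22.4-fold higher with an interval of 15.9 to 32.5, and 725 counts (33.6 CPM) in N2_Zn against 60 (2.12 CPM) in N2, 15.9-fold higher. At basal nitrate its levels were 20 (N0), 12 (N0_Cd), 112 (N0_Zn) and 8.52 CPM (N0_Cd_Zn), so there it was high with Zn alone and not with both metals. TRIAE_CS42_7BL_TGACv1_581590_AA1917480 on arm 7BL was at 133 CPM in N2_Cd_Zn and 141 CPM in N2_Zn, against 8.62 in N2_Cd and 10.8 in N2. Its ratios were 15.4-fold (13.3 to 18.0) with Cd and 13.0-fold (11.6 to 14.7) without. At basal nitrate its levels were 9.77 (N0), 3.10 (N0_Cd), 2.06 (N0_Zn) and 8.66 CPM (N0_Cd_Zn). There it was 4.75-fold lower with Zn alone (3.4 to 6.7) and 2.8-fold higher with Zn under Cd (2.1 to 3.7). Novel08232 was lower with Zn in both pairs at raised nitrate. It had 0 counts in N2_Cd_Zn and 1 in N2_Zn, against 600 (27.6 CPM) in N2_Cd and 1300 (45.9 CPM) in N2. At basal nitrate it had 965 counts in N0_Cd, 35 in N0, 2 in N0_Zn and 1 in N0_Cd_Zn. The U gene with 13 counts against 12699, described above, was the other gene named as lower in both pairs.

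At basal nitrate, Zn was added to Cd in N0_Cd_Zn against N0_Cd. That pair shares no library with the present one and had 13.6% of 34027 genes higher and 19.6% lower. Of the 2060 genes higher at raised nitrate and compared in both, 11.1% were higher at basal nitrate and 46.1% were lower, against 8.09% and 20% of all 29719 genes compared in both. Of the 3442 genes lower at raised nitrate, 1001 were lower at basal nitrate (29.1%, against 20% of all) and 958 higher (27.8%, against 8.09%). Both groups thus held more genes of either direction than the background. The opposite direction was the more common among the higher genes. Among the lower genes the same direction was slightly more common, with 1001 against 958. The difference between the nitrate levels was not tested, since each pair has 1 library a side.

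The closest direction was found with Zn alone at basal nitrate. In N0_Zn against N0, which also shares no library with the present pair, 8.42% of 31538 genes were higher and 10.4% lower. Of the 2318 genes lower with Zn under Cd at raised nitrate and compared in both, 1311 (56.6%) were lower there and 131 (5.65%) higher, against 8.91% and 7.67% of all 27826 genes compared in both. Of the 2180 higher genes, 780 (35.8%) were higher there and 109 (5%) lower. Read from the other pair, 52.9% of the genes lower and 36.6% of those higher in N0_Zn against N0 were called the same way here.

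**Figure D3:**
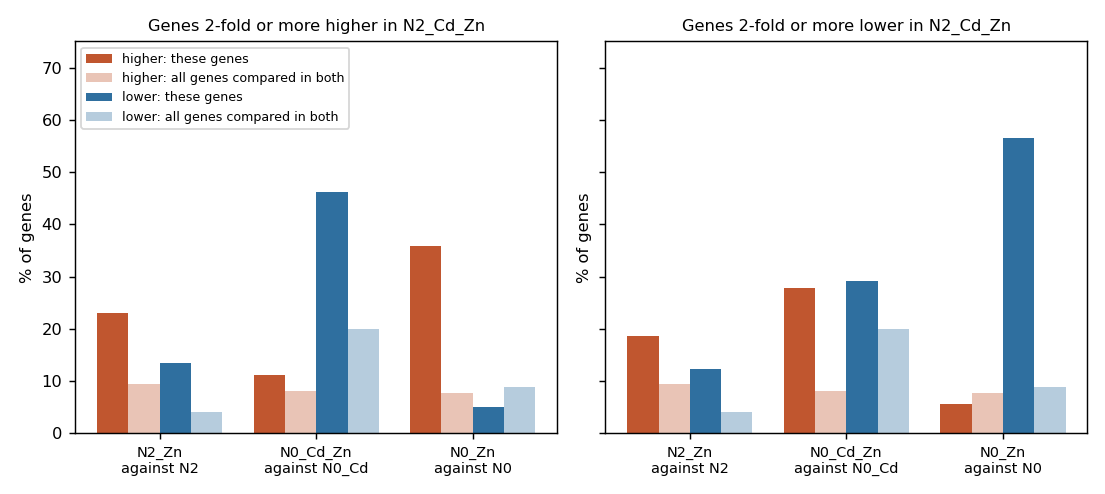
Share of genes (y axis, %) 2-fold or more higher (orange) or lower (blue) in the 3 other pairs that differ in Zn, for the genes higher (left panel) and lower (right panel) in N2_Cd_Zn, with pale bars for all genes compared in both. The tallest bar is the 56.6% of the lower genes that were also lower in N0_Zn against N0.

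The levels in all 8 libraries show where these groups of genes stood. The 2683 higher genes had a median of 14.7 CPM in N2_Cd_Zn and 4.65 CPM in N2_Cd, the lowest median of the 8. They were at 8.26 CPM in N2 and 8.77 CPM in N2_Zn, between these values. At basal nitrate their medians were 10.5 CPM in N0, 9.62 in N0_Cd, 16.1 in N0_Zn and 5.90 in N0_Cd_Zn. The 4365 lower genes had a median of 14.4 CPM in N2_Cd and 4.58 CPM in N2_Cd_Zn, with 7.87 in N2 and 7.70 in N2_Zn. Their basal medians were 4.88 CPM in N0, 7.91 in N0_Cd, 2.38 in N0_Zn and 7.77 in N0_Cd_Zn. In either group the medians of N2 and N2_Zn lay between those of the 2 libraries compared. Both groups were chosen on those 2 libraries, which favours this order, so it gives no test.

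Large ratios rested more on N2_Cd. The 319 genes at 8-fold or more lower had a median of 13.3 CPM in N2_Cd and 0.525 CPM in N2_Cd_Zn, and their medians in N2, N2_Zn and the basal libraries ran from 0.274 (N0_Zn) to 2.36 CPM (N0_Cd). N2_Cd was the highest of the 8 libraries in 245 of them (76.8%), and in 208 of the 282 that remained without the genes read in N2_Cd alone. Among the 263 genes at 8-fold or more higher, N2_Cd was the lowest of the 8 libraries in 149 (56.7%) and N2_Cd_Zn the highest in 93 (35.4%). Over all compared genes N2_Cd was the highest in 14.3% and the lowest in 10.9%. Since these groups were chosen on the level of N2_Cd, the shares describe the genes and give no test.

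**Figure D4:**
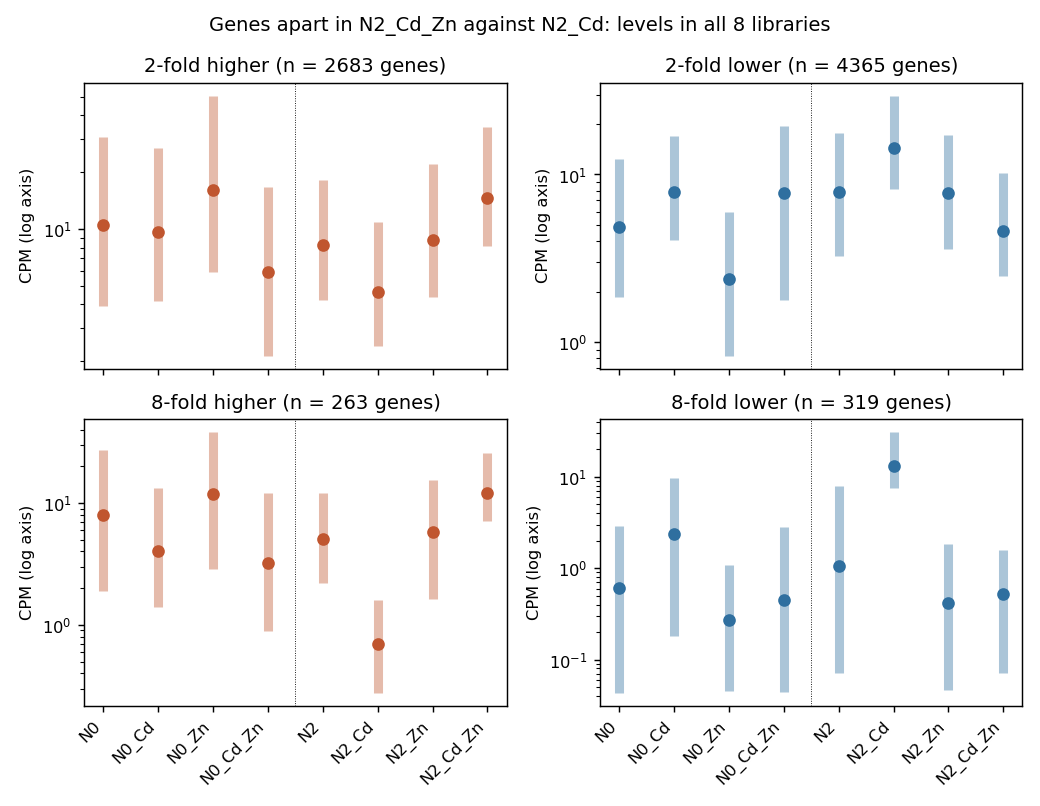
CPM (log axis) in each library for genes 2-fold or 8-fold apart between N2_Cd_Zn and N2_Cd, with the dot at the median over genes and the bar from the lower to the upper quartile. The median of the 8-fold lower genes is 13.3 CPM in N2_Cd and under 2.4 CPM in the other 7 libraries.

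Comparisons that share N2_Cd or N2_Cd_Zn are given side by side only. The genes lower here had a median log2 ratio of 0.81 in N2_Cd against N2, -0.70 in N2_Cd_Zn against N2 and -0.75 in N2_Cd_Zn against N2_Zn. The genes higher here had medians of -0.59, 1.01 and 0.71. In N2_Cd, 4258 genes were 2-fold or more higher than in N2 (12.8% of 33269). Of these, 2185 were within 2-fold of N2 in N2_Cd_Zn, 1983 were still 2-fold higher and 90 were lower. Of the 2464 lower in N2_Cd (7.41%), 1055 were within 2-fold of N2, 1318 were still lower and 91 were higher. Over the 32895 compared genes, 79.7% were within 2-fold in N2_Cd_Zn against N2. Both sets were picked on the ratio of N2_Cd to N2. Picking on N2_Cd favours a return toward N2 in any other library. The use of the same N2 library in both ratios favours genes counted as still apart. These counts therefore give no test of Zn.

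The A and B subgenomes went alike. Of 13496 genes with an A code 7.96% were higher and 14.1% lower, and of 13896 with a B code 7.83% and 13.2%. Each of the 27 A and B arms, with chromosome 3B counted whole among them, had more lower than higher genes. The share higher ran from 5.53% (4AS) to 11.7% (1AS), and the share lower from 11.1% (5AS and 5BS) to 16.6% (1AL). Arm 1AL also held 24 of the 263 genes at 8-fold or more higher among its 1355 compared genes. The 899 compared genes with a D code were lower in 20.9%, and in 19.2% without those read in N2_Cd alone, against 13.3% of all compared genes. On log2(FPKM + 1) 9.76% of D-coded genes were lower, where 3578 of all 47906 genes compared on that scale were lower. D-coded genes took up 2.24% of the counts of N2_Cd and 1.95% of those of N2_Cd_Zn. In the other libraries their share ran from 1.91% (N0) to 2.2% (N2). The 1199 compared genes with the code U had 8.17% higher and 14.1% lower. Loci with a serial number only had the opposite balance, with 342 of 3405 higher (10%) and 267 lower (7.84%). They made up 65 of the 263 genes at 8-fold or more higher. They leaned to the higher side under every alternative that could be computed for them.

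Gene length went with the share of higher genes but hardly with that of lower genes. Of the 6576 shortest genes, up to 1243 bp, 13% were higher and 14.6% lower. Of the 6577 longest, over 2839 bp, 3.92% were higher and 13.7% lower, with a median log2 ratio of -0.20 against 0.06 in the shortest. The longest genes took up 18.2% of the counts on compared genes in N2_Cd_Zn, 19.9% in N2_Cd and between 18.3% and 21.4% in the other 6 libraries. The fall of the higher share with length was not particular to this pair, since it was seen from each class to the next in 7 of the 8 comparisons computed, several of which share libraries. From the shortest to the longest class it went from 14.9% to 4.42% in N2_Zn against N2, from 10.7% to 6.45% in N0_Zn against N0 and, with no difference in Zn, from 16.5% to 7.47% in N2_Cd against N2. The exception was N0_Cd_Zn against N0_Cd, where it went from 15.7% to 14.3%. Whether RNA quality or library preparation has a part in the relation with length was not tested.

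**Figure D5:**
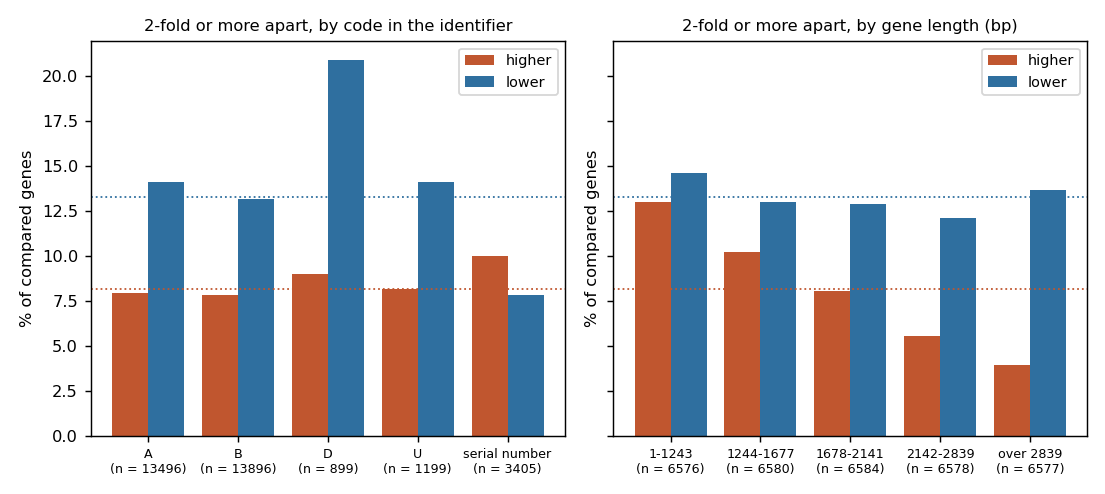
Share of compared genes (y axis, %) 2-fold or more higher (orange) or lower (blue) in N2_Cd_Zn, by the code in the gene identifier (left panel) and by 5 classes of gene length in bp (right panel), with dotted lines at 8.16% and 13.3% for all compared genes. Higher genes go from 13% in the shortest to 3.92% in the longest class.

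Among the most abundant transcripts the balance depended on which library picked the genes. Among the 132 genes at 500 CPM or more in 1 of the 2 libraries, 25 were higher and 11 lower, although their median log2 ratio was -0.30. At 5 to 10 CPM, 911 of 9977 genes were higher and 1501 lower. The 100 genes with the highest CPM took up 8.66% of the counts of N2_Cd and 9.61% of those of N2_Cd_Zn, and 55 of them were the same genes. Of the 100 picked in N2_Cd 4 were higher and 11 lower, with a median log2 ratio of -0.48, and of the 100 picked in N2_Cd_Zn 28 were higher and 0 lower, with a median of 0.50. Picking by 1 of the 2 libraries compared favours genes that are high in it. Between them, the 2683 higher genes took up 11.9% of the counts of N2_Cd_Zn and 3.6% of those of N2_Cd, while the 4365 lower genes took up 4.49% and 12.9%.

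The direction of neighbouring genes was also compared. Neighbours here are compared genes that follow each other in identifier number on 1 scaffold, and there were 7883 such pairs. After a lower gene the next was lower in 21.2% of pairs, against 13% over all pairs, and after a higher gene the next was higher in 18.9%, against 8.11%. Both members were lower in 219 pairs and higher in 122, and they were of opposite direction in 138. Near-identical neighbours can share reads, so pairs are not independent. Runs of 3 or more neighbours of 1 direction numbered 19 lower and 9 higher.

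The longest run was 5 lower genes on arm 4BL, with log2 ratios from -2.58 to -1.50. Their levels were 5.94 to 52.8 CPM in N2_Cd and 1.57 to 9.97 CPM in N2_Cd_Zn. In N2 they were at 0.494 to 5.57 CPM, in N2_Zn at 0.928 to 9 CPM and in N0_Cd at 0.978 to 5.95 CPM, and N2_Cd had the highest median of the 8 libraries. The higher run with the largest ratio comprised 3 genes on arm 5AL. They were at 6.2 to 58.8 CPM in N2_Cd_Zn, 0.184 to 1.15 CPM in N2_Cd, 0 to 0.232 CPM in N2_Zn and 2.40 to 9.74 CPM in N2. At basal nitrate they were at 23.6 to 101 CPM in N0, 20.1 to 191 in N0_Cd, 75.1 to 302 in N0_Zn and 5.06 to 79.0 in N0_Cd_Zn, so the medians of N2, N2_Cd and N2_Zn were the lowest of the 8. Both runs were chosen after their values were seen.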

How the data were processed

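RNA of wheat roots was sequenced from 8 treatments. Per the labels' protocols, Trizol-extracted RNA went into Illumina TruSeq libraries, whereas a long-read method is named in the design text. Bowtie2 2.0.6 and TopHat2 2.0.12 appear in the submitters' processing notes. Not given in the sources used here are the counter, its strand setting, the genome build, the annotation release and any pooling of replicates. The deposited table of counts holds raw reads by gene, 1 column a treatment, and the FPKM values made by the authors equal count over length and column total, to a relative deviation of 2.27e-14 at most, and were used for gene lengths and 2 alternatives. All 16 columns were matched to treatments by name.

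Counts were scaled with TMM factors (edgeR 4.0.16 in R 4.3.3) from the 64580 genes kept by filterByExpr with a minimum count of 10, without a test. Log2 ratios used a prior count of 2. Genes at 5 CPM or more in 1 of the 2 libraries were compared, and 2-fold and 8-fold ratios were counted. Folds against 0 counts are bounds against 3 counts in that library (0.143 CPM in N2_Cd_Zn and 0.138 CPM in N2_Cd), and other folds carry an exact 95% binomial interval of counting error (scipy 1.17.1). The computation of ratios and intervals was checked on simulated counts with known folds. Named genes were the 2 highest and 2 lowest ratios at 20 CPM or more, leaving out genes read in N2_Cd alone, the 2 most deeply read of those, and the 2 highest and 2 lowest by the smaller of the ratios with and without Cd. Lists by product description were not run, as the identifiers lack names. The members, groups and rules were chosen with earlier results of these data known. Alternatives were DESeq2 1.42.0 size factors, CPM by library total, other minimums and prior counts, gene subsets and log2 of FPKM with a pseudocount of 1 or 0.1.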

Additional observations from a re-analysis of the deposited data

Results flagged for a closer look

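Results of opposite direction at raised and at basal nitrate were picked out, and the difference was not tested because each pair has 1 library a side. Novel09935 was higher with Zn under Cd at raised nitrate (at least 415-fold) and lower at basal nitrate (log2 ratio -5.45). Of 29719 genes compared in both pairs, 949 were 2-fold or more higher at raised and lower at basal nitrate. Another 958 were lower at raised and higher at basal nitrate. These were 46.1% of the 2060 higher and 27.8% of the 3442 lower genes. At basal nitrate 20% of all 29719 genes were lower and 8.09% higher. The direction was the same in 228 higher and 1001 lower genes.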

How the results depend on the processing

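Each treatment has 1 library, so none could be left out. No paired analysis was possible because each treatment has 1 library. Of the 12 alternatives, TMM factors from all genes was chosen after seeing the data; it moved the median log2 ratio by 0.11. The excess of lower genes at 2-fold, and that among genes of the same direction in N0_Cd_Zn against N0_Cd or in N0_Zn against N0, turned under none of the 12. Other balances did turn. The median log2 ratio, -0.04, was 0.01 with median-of-ratios size factors, 0.04 with CPM by library total, 0.06 with TMM factors from all genes, 0.04 on log2(FPKM + 1) and 0.05 on log2(FPKM + 0.1). Genes of the same direction in N2_Zn against N2, 497 higher and 404 lower, became 408 and 526 with CPM by library total, 393 and 462 on log2(FPKM + 1) and 671 and 982 on log2(FPKM + 0.1), and also turned at 1 CPM and with no minimum. The balance at 8-fold turned under 2 settings. Of 178 recomputed counts and shares 119 stayed within 1.5 times, and for the 4 named genes with reads in both libraries 24 of 28 log2 ratios stayed within the counting interval. The 5 named genes at 0 in 1 library have no such interval; 17 of their 35 fitted ratios stayed within 1.5 times, and the others moved with the prior count or with FPKM. No named gene changed direction. Depth limits small ratios of genes near the floor of 3 counts.

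The excess of lower over higher genes at 2-fold, -1682 as higher minus lower, was -1117 with median-of-ratios size factors, -900 with CPM by library total, -607 with TMM factors from all genes, -571 at a minimum of 20 CPM, -4593 with no minimum, -428 on log2(FPKM + 1) and -725 on log2(FPKM + 0.1). In genes with a serial number only, higher minus lower was 75, and under the same 7 settings in that order 149, 181, 218, 39, 571, 258 and 492, with 372 at a minimum of 1 CPM.

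Other minimums changed how many genes were compared and with it the counts. At 1 CPM, no minimum and 20 CPM in turn, 5540, 9862 and 1068 genes were higher at 2-fold and 7874, 14455 and 1639 lower. At 8-fold 560, 643 and 83 were higher and 652, 767 and 116 lower. Genes higher with Zn under Cd and also in N2_Zn against N2 numbered 905, 1546 and 246, and those lower in both 1049, 2452 and 114. For N0_Cd_Zn against N0_Cd they numbered 877, 2139 and 44 higher and 2119, 3524 and 320 lower, and for N0_Zn against N0 1393, 2197 and 340 higher and 2796, 4606 and 397 lower. The share higher among the longest genes was 5.96% at 1 CPM and 7.58% with no minimum.

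On log2(FPKM + 1), 104 genes were 8-fold higher and 137 lower, and 365 were higher here and in N0_Cd_Zn against N0_Cd. On that scale 9.76% of D-coded genes were lower and 2.17% of the longest genes higher. Over all 47906 genes compared on it, 3578 were lower and 3150 higher at 2-fold. On log2(FPKM + 0.1), 5385 genes were higher at 2-fold, and at 8-fold 521 were higher and 515 lower; this setting and TMM factors from all genes, with 302 and 294, were the 2 with more higher genes there. With the 0.1 pseudocount 982 genes were lower here and in N2_Zn against N2, 830 higher and 1609 lower here and in N0_Cd_Zn against N0_Cd, and 2142 lower here and in N0_Zn against N0. The cause of these shifts was not tested.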
